A study of Sus scrofa with 6 samples.

Results

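Osteopontin, the product of SPP1, is a secreted phosphoglycoprotein that binds cells through integrins and through the hyaluronan receptor CD44. Its arginine-glycine-aspartate motif is held by integrins that combine the alpha subunit ITGAV with ITGB1, ITGB3, ITGB5 or ITGB6, and by those that combine ITGB1 with ITGA5 or ITGA8, while ITGA4 binds a neighbouring stretch of the protein. In the pig uterus osteopontin is made by the luminal epithelium around the time the conceptus attaches, and with its integrin receptors it is known as a bridge between the uterine wall and the trophectoderm. SPP1 and 9 receptor genes made a list of 10 (ITGAV, ITGB1, ITGB3, ITGB5, ITGB6, ITGA4, ITGA5, ITGA8 and CD44), and all probe sets that carry one of these symbols in the annotation of the array were taken, numbered where a gene has several. The annotation names 7 of the 10 genes with 10 probe sets, of 6765 genes that have a symbol of their own and 24123 probe sets on the array. ITGB6, ITGA4 and CD44 are not among its names and were not analysed here.

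The tissue came from 3 weaned Landrace x Large White crossbred sows in which 1 oviduct was inseminated by laparoscopy and the other was injected with the semen diluent alone. On day 6 the horn of the inseminated side held embryos at the blastocyst stage (embryo group, n = 3 horns) and the contralateral horn of the same sow held oocytes (oocyte group, n = 3 horns). Both horns of a sow thus shared its hormones and its genotype, while spermatozoa were given on the embryo side alone, so that their effect and that of embryos cannot be told apart. Cells were scraped from the mucosa of the horn next to the utero-tubal junction and each horn was hybridised to 1 Affymetrix porcine array. The question was whether embryos change uterine gene expression locally, relative to oocytes. Signals are in arbitrary units on a linear scale. Probe sets differ in how strongly they bind, so a signal or a percentile describes the probe set and does not rank genes by transcript level, and embryos were set against oocytes within each probe set.

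In these scrapings a lower signal can mean fewer cells of a type or less RNA per cell, which cannot be told apart. The epithelial marker EPCAM lay between 2014 and 2328 on the 6 arrays. KRT8 (2128 to 3592) and CDH1 (1053 to 1553) varied more and were lowest in both horns of sow 1. The sum of 7 of 7 epithelial markers lay between 7872 and 10161 with oocytes and between 7652 and 10426 with embryos. Markers of other cells were present as well, and their sums ranged from 3398 to 7324 for stroma (6 of 7 genes measured), from 560.7 to 2273 for smooth muscle (5 of 6), from 112.6 to 200.4 for leukocytes and macrophages (6 of 8), from 151.2 to 241.3 for endothelium (4 of 5) and from 274.9 to 360.4 for platelets and red cells (3 of 5). No defining marker was at 0, but KDR of endothelium (0.4 to 5.7) and PPBP of platelets (0.7 to 4.0) were under 10 on all arrays. The stromal and smooth muscle sums were highest in sow 1, in both horns, and the epithelial sum was lowest there. The ratio of 5′ to 3′ signal of the GAPDH control, which falls as RNA is degraded, was 0.355, 0.20 and 0.226 in the oocyte horns of sows 1 to 3, and 0.243, 0.130 and 0.199 in their embryo horns. Every sow had the lower ratio on the embryo side, and the embryo horn of sow 2 had the lowest of all.

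None of the 10 probe sets of osteopontin and its receptors passed an adjusted p of 0.05 between embryo and oocyte horns. SPP1 had the largest difference upwards, with 1 sow carrying most of it, and 1 of the 2 probe sets of ITGA5 had the largest downwards, at signals near the bottom of the array. ITGAV and ITGB1, read by bright probe sets, had differences of -0.15 and -0.04 on the log2 scale. In limma all 10 had an adjusted p = 1.00, which was also the smallest among the 23999 probe sets tested, so that the call rate over all of them was 0%. A block for the sow left it at 0%, and there the smallest adjusted p was 0.505 among the members and 0.0810 among all. That count changed in the fits that leave only 1 residual degree of freedom per probe set. It changed most in the blocked fit without sow 3, which called 203 probe sets, none of them a member. There SPP1 had an adjusted p = 0.0733 in limma. The blocked fits without sow 1 or sow 2 called 3 and 1, and the fit with the sow and the 5′ to 3′ ratio called 1. Without the block the fit without sow 3 called 0. At an unadjusted p under 0.05 stood 1 of the 10 members (ITGA5 probe set 2), against 2.88% of all probe sets. The fit with the sow as a block again had 1 of 10 (SPP1), against 8.7%. Of the members 5 lay above 0 and 5 below, and their median difference was 0.01 on the log2 scale, equal to that of all probe sets (0.01). The median size of the difference, regardless of direction, was 0.167 for the members and 0.201 for all.

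**Figure D1:**
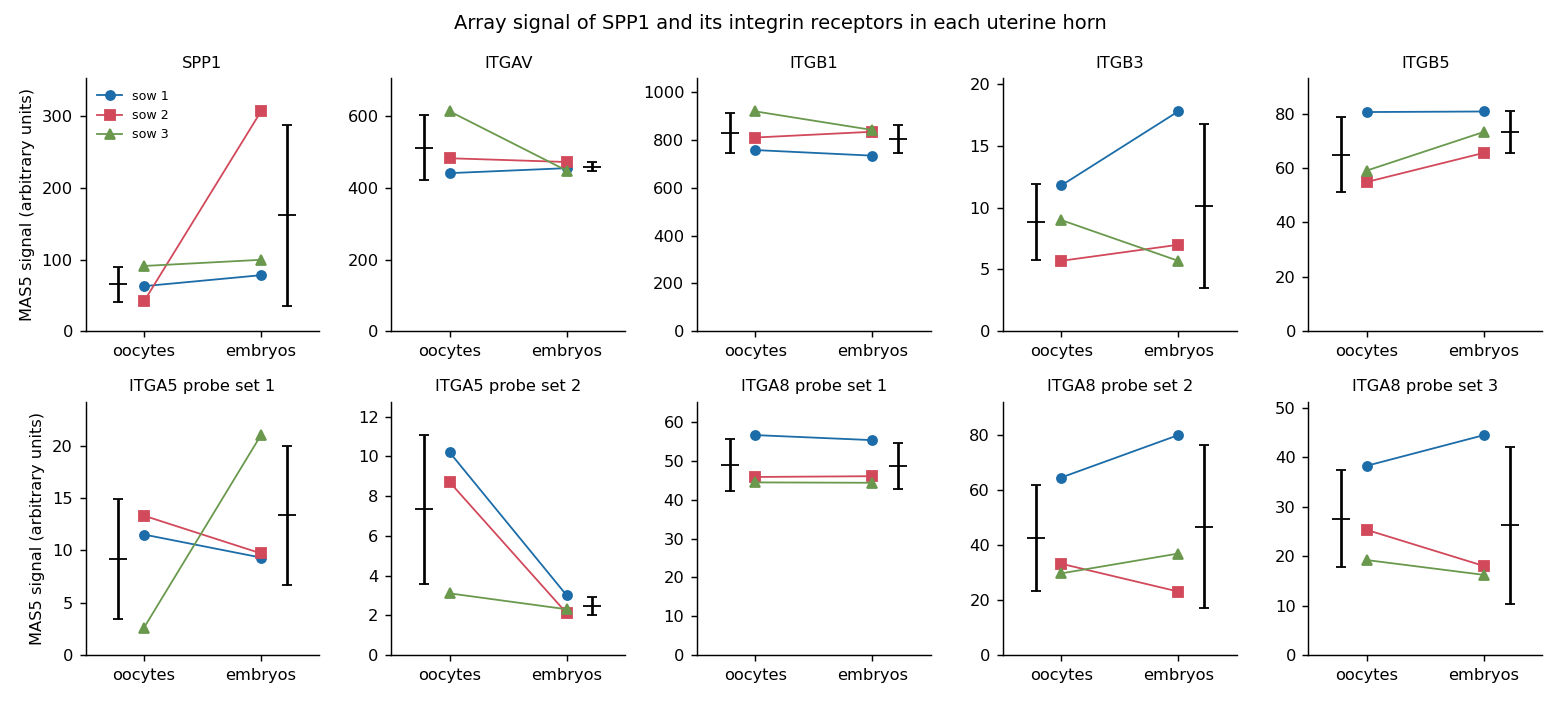
Deposited signal (arbitrary units, linear axis from 0, 1 scale per panel) of each of the 10 probe sets on the 6 arrays. Points are single horns, lines join the 2 horns of a sow, and the bars beside them give the mean and SD of each group. The lines of SPP1 are nearly flat in sows 1 and 3 and climb from 41.7 to 306.9 in sow 2, while those of ITGB1 stay between 734.6 and 919.8.

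The ligand itself, SPP1, gave signals of 62.9, 41.7 and 91.1 in the oocyte horns of sows 1, 2 and 3. In the embryo horns of the same sows it gave 78.2, 306.9 and 99.7. The embryo horn was the higher in all 3 sows, but the groups overlapped, since the oocyte horn of sow 3 exceeded the embryo horn of sow 1. Sow 2 held both the lowest and the highest of the 6 signals. The oocyte horns averaged 65.2 ± 24.8 and the embryo horns 161.6 ± 126 (SD, n = 3 each). Within sows the ratio of embryo to oocyte was 1.24, 7.36 and 1.09. On the normalised log2 scale the 3 differences were 0.30, 2.90 and 0.12.

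For SPP1 the fitted difference was 1.10 (SE 0.50, 95% CI -0.04 to 2.25), a 2.15-fold higher level with embryos whose interval ran from 0.969-fold to 4.76-fold. With the sow as a block the interval was 0.16 to 2.05 (1.11-fold to 4.14-fold), and the adjusted p = 0.505 from limma. Both estimates rest on sow 2. Without its embryo horn the difference was 0.49, and without both of its horns 0.21. In the latter case limma gave a standard error of 0.28 and with the block 0.18, so that no difference was detectable in the other 2 sows. Leaving out sow 1 or sow 3 instead raised it to 1.51 or 1.60. In sows 1 and 3 the signals of the 2 horns differed by less than the oocyte horns did among the 3 sows (41.7 to 91.1). The embryo horn of sow 2 was also the array with the lowest 5′ to 3′ ratios. With that ratio as a covariate the difference of SPP1 was 0.63 (SE 0.48), and with the ratio and the sow together it was -1.06 (SE 0.59), a fit that leaves 1 residual degree of freedom per probe set.

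**Figure D2:**
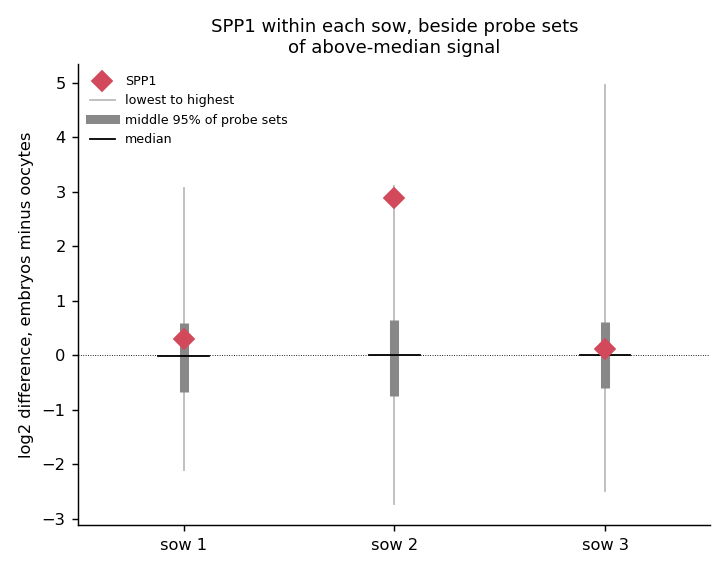
Difference of SPP1 between embryo and oocyte horn in each sow (log2, diamonds), beside the probe sets with above-median signal in that sow (thick bars, their middle 95%; thin lines, lowest to highest; short black lines, median). The diamond of sow 2, at 2.90, lies above the thick bar's upper end at 0.66 and below the highest probe set at 3.11, and those of sows 1 and 3 (0.30 and 0.12) lie inside their bars.

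How unusual the signal of sow 2 was among its own arrays can be read from the other probe sets. A difference at least as high as that of SPP1 was found in 362 of 23999 probe sets in sow 2 (1.51%), against 24.5% in sow 1 and 38.1% in sow 3. Dim probe sets vary more, so the 11999 with above-median signal were read separately. Among them 2 reached it in sow 2, which were SPP1 itself and OVGP1, the gene of oviduct-specific glycoprotein, named here after its values were seen. OVGP1 gave 23.3, 34.5 and 2.8 with oocytes and 22.1, 289.3 and 89.5 with embryos. It counted among the above-median probe sets through the embryo horns of sows 2 and 3, its other signals lying near or under the array medians of 30.6 to 35.8. No size is given for sow 3, where the oocyte signal was under 10, and in sow 1 its difference was -0.12.

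Genes that followed SPP1 over the 6 arrays were sought among 6103 above-median probe sets with 1 gene symbol, by the root mean square distance between deviations from each probe set's own mean on the log2 scale. RHBDF2, an inactive rhomboid protease relative that guides the maturation of ADAM17, was nearest at 0.517, and PPOX (0.522), PAPD7 (0.556), PYROXD1 (0.558) and METTL18 (0.576) followed. The median distance was 0.916, and the size of SPP1's own deviations was 0.892, so that even the nearest genes left more than a small part of its pattern unmatched. RHBDF2 gave 33.9, 23.5 and 35.3 with oocytes and 45.4, 59.2 and 41.8 with embryos. It too was lowest in the oocyte horn and highest in the embryo horn of sow 2, with a narrower range. The 6 arrays on which likeness was measured are those on which SPP1 was described.

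Among the receptors, ITGAV is the alpha subunit shared by most of the integrins that hold osteopontin. Its probe set gave 441.2, 482.7 and 613.5 with oocytes and 455.1, 472.3 and 448.2 with embryos. The embryo horns lay close together, and the oocyte horn of sow 3 stood above the other 5 arrays. The means were 512 ± 89.9 and 459 ± 12.4 (SD, n = 3 each), and the difference was -0.15 on the log2 scale (SE 0.14, 95% CI -0.46 to 0.16). Sow 3 alone contributed a visible decrease (0.03, -0.04 and -0.44 in sows 1 to 3), and without its oocyte horn the fit gave -0.02. With the sow and the 5′ to 3′ ratio both in the fit it was -0.54 (SE 0.19, adjusted p = 0.649 in limma). The interval corresponds to 0.727-fold to 1.119-fold, so that a change of ITGAV transcript by as much as the 2.15-fold of SPP1 lay outside it.

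ITGB1, the beta subunit that pairs with ITGAV, ITGA5, ITGA8 and ITGA4, was read by a bright probe set, at percentile 97.0 of mean log2 signal. It gave 758.0, 810.6 and 919.8 with oocytes and 734.6, 834.7 and 841.9 with embryos. The order of the sows was the same on either side, and the groups overlapped almost fully. The difference was -0.04 (SE 0.11, 95% CI -0.30 to 0.22), with -0.06, 0.04 and -0.11 in the 3 sows. With the sow as a block the interval narrowed to 0.868-fold to 1.08-fold, the tightest of the 10 probe sets. The sign of so small a value turned when the oocyte horn of sow 3 or the embryo horn of sow 1 was left out (range -0.09 to 0.03).

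The other beta subunits of the list are ITGB3, best known from platelets, endothelium and osteoclasts, and ITGB5, which is widespread in epithelium and stroma. ITGB5 gave 80.6, 54.9 and 59.1 with oocytes and 80.8, 65.6 and 73.3 with embryos. Its signal was nearly equal in the horns of sow 1 and somewhat higher with embryos in sows 2 and 3. The difference was 0.19 (SE 0.20, 95% CI -0.27 to 0.65), with -0.02, 0.28 and 0.29 by sow. The small negative value of sow 1 became positive with the signals as deposited (80.6 against 80.8) and with quantile normalization. ITGB3 was dim, at percentile 27.3, with 11.8, 5.7 and 9.0 with oocytes and 17.8, 7.0 and 5.7 with embryos. It was higher with embryos in sows 1 and 2 and lower in sow 3, and the interval of its difference (0.06, 95% CI -1.20 to 1.31) ran from 0.436-fold to 2.48-fold and was wider than those of ITGAV and ITGB1.

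ITGA5, the alpha subunit of the classical fibronectin receptor, was read by 2 probe sets, and these disagreed. Probe set 1 gave 11.5, 13.3 and 2.6 with oocytes and 9.3, 9.7 and 21.0 with embryos. It was lower with embryos in sows 1 and 2 and higher in sow 3, where the oocyte signal was under 10. Its difference of 0.73 (SE 0.69, 95% CI -0.85 to 2.32) became -0.37 without sow 3, 0.14 with all signals under 10 set to 10, and 0.135 with 32 added to each signal. Probe set 2 gave 10.2, 8.7 and 3.1 with oocytes and 3.0, 2.1 and 2.3 with embryos. Every embryo horn lay below every oocyte horn, which held for no other of the 10 probe sets (1 of 10, against 8.01% of all probe sets).

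For probe set 2 of ITGA5 the means were 7.33 ± 3.74 and 2.47 ± 0.473 (SD, n = 3 each) and the difference was -1.44 (SE 0.63, 95% CI -2.89 to -0.00), with an adjusted p = 1.00 in limma. Its mean signal lay low, at percentile 16.1 of the array, where 1 unit is a large step on a log scale. When all signals under 10 were set to 10, the difference was -0.01, and with 32 added to each signal it was -0.19. In the oocyte horn of sow 3 both ITGA5 probe sets gave their lowest oocyte signal, and in its embryo horn only probe set 1 was high.

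**Figure D3:**
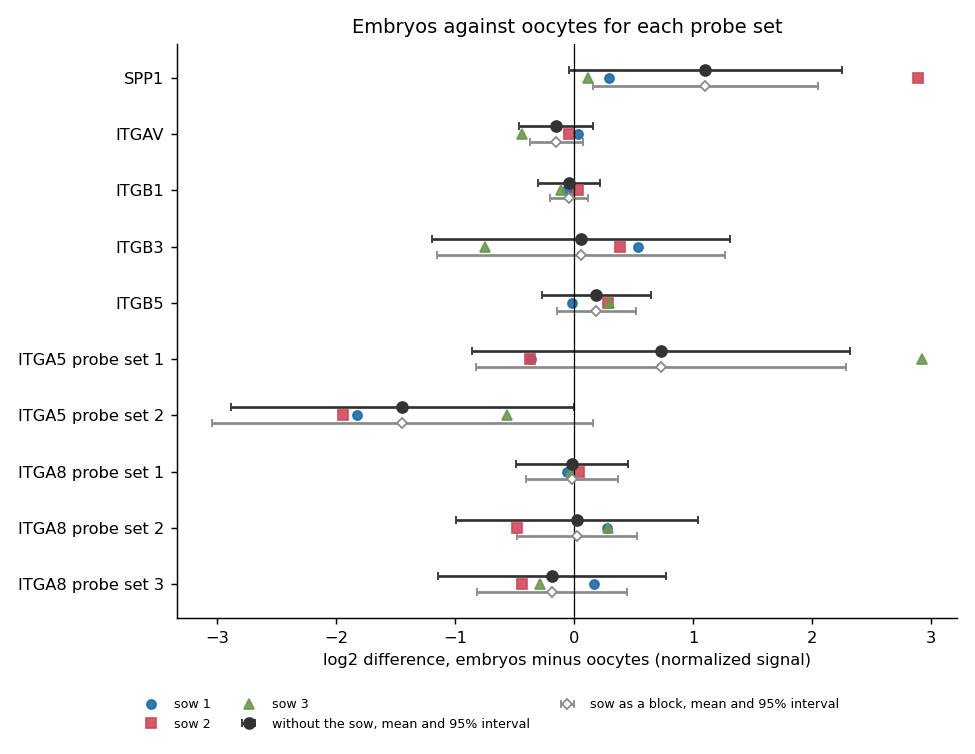
Fitted difference between embryo and oocyte horns (log2, positive where embryos are higher) of the 10 probe sets, with the 95% interval of the fit without and with a block for the sow, and the 3 single-sow differences as coloured points. Intervals are short for ITGB1 (-0.30 to 0.22) and ITGAV (-0.46 to 0.16) and long for the dim ITGA5 and ITGB3 probe sets, and the sows of SPP1 spread from 0.12 to 2.90.

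ITGA8, an alpha subunit of mesenchymal and smooth muscle cells that pairs with ITGB1, was read by 3 probe sets. Probe set 1 gave 56.7, 45.9 and 44.5 with oocytes and 55.4, 46.1 and 44.4 with embryos, so that the horns of a sow were nearly equal in all 3 sows. Its difference was -0.02 (SE 0.21, 95% CI -0.49 to 0.45), or -0.06, 0.04 and -0.03 by sow. Probe set 2 gave 64.4, 33.1 and 29.6 with oocytes and 79.8, 23.0 and 36.8 with embryos. Probe set 3 gave 38.3, 25.3 and 19.2 with oocytes and 44.5, 18 and 16.2 with embryos. These 2 differed by 0.03 (95% CI -0.99 to 1.04) and -0.19 (95% CI -1.15 to 0.78), and their directions by sow were mixed. With the 5′ to 3′ ratio as a covariate probe set 2 differed by 0.63 (SE 0.27, adjusted p = 0.937 in limma).

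What the 3 probe sets of ITGA8 shared was the sow. On each of them both horns of sow 1 gave more than the other 4 arrays. Over the whole list, the 2 arrays of sow 1 lay outside the range of the other 4 for 6 of the 10 probe sets, against 28.9% of all probe sets. It was above the others for ITGB3, ITGB5 and the 3 of ITGA8, and below them for ITGB1. The same was true of sow 2 for 0 of 10 (22.5% of all) and of sow 3 for 2 of 10 (17% of all). Sow 1 also had the highest smooth muscle marker sum in both horns, 2273 with oocytes and 1550 with embryos against 560.7 to 1015 in the other 4. Its stromal sum was the highest as well, 7324 and 6842 against 3398 to 5145. Its epithelial sum was the lowest in both horns, 7872 and 7652 against 9847 to 10426. VCAM1, an ITGA4 ligand named here after its values were seen, stood apart in the same sow, with 618.4 and 712.5 in its oocyte and embryo horn against 142.3 to 176.7 on the other 4 arrays. Both arrays of sow 1 also had the highest 5′ to 3′ ratios of GAPDH, 0.355 and 0.243 against 0.130 to 0.226 on the other 4. Within sow 1 the embryo horn had the lower smooth muscle sum (ratio 0.682). Of the markers in that sum ACTG2 was higher there (184.7 against 132.0) and the others were lower. ITGA8 probe sets 2 and 3 were higher in that horn and probe set 1 slightly lower. The part of epithelium, smooth muscle, stroma or RNA quality in the ITGA8 signal was not tested.

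**Figure D4:**
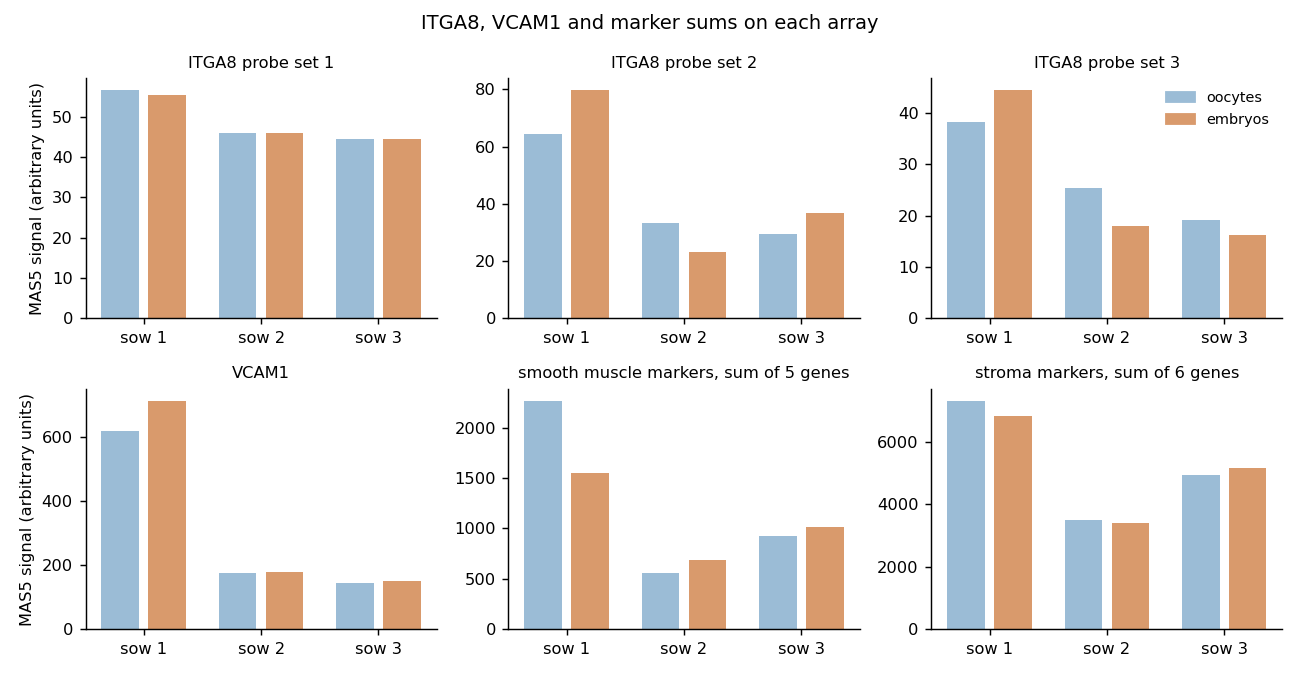
Signal (arbitrary units, 1 bar per array, axes from 0) of the 3 ITGA8 probe sets, of VCAM1 and of the summed smooth muscle and stroma markers in the oocyte and embryo horn of each sow. In each panel both bars of sow 1 stand above the other 4, with a smooth muscle sum of 2273 and 1550 and a VCAM1 signal of 618.4 and 712.5.

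Counting by sow, 1 of the 10 probe sets was higher with embryos in all 3 sows (SPP1), against 14.9% of all probe sets, 1 was lower in all 3 (ITGA5 probe set 2), against 14.8%, and 8 were mixed. These shares are near those of all probe sets. The median difference of the 10 was 0.01, -0.00 and -0.07 in sows 1, 2 and 3, with members on both sides of 0 in each. No receptor probe set had a step like that of SPP1 in sow 2, where their differences ran from -1.95 (ITGA5 probe set 2) to 0.38 (ITGB3).

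The 4 lists of related genes, each read at the brightest probe set of the gene, held 0 genes that passed an adjusted p of 0.05 in limma, with or without the sow as a block. Of the integrin subunits outside the osteopontin receptors 6 of 18 were measured, and 5 of them lay above 0 and 1 below, with a median difference of 0.31 and a range from -0.63 to 0.49. That median came from dim probe sets, and it was -0.041 with all signals under 10 set to 10 and 0.034 with 32 added. At an unadjusted p under 0.05 there was none, against 2.88% of all probe sets. With the sow as a block, where the share over all probe sets was 8.7%, there was 1. This was ITGB2, the beta subunit of leukocyte integrins, which gave 27.8, 49.8 and 35.6 with oocytes and 41.2, 62.2 and 50 with embryos. It was higher with embryos in each sow by a like amount (0.54, 0.36 and 0.46 on the log2 scale), while the sows differed among themselves, and the fitted difference was 0.45 (SE 0.31, adjusted p = 0.537 with the block). The summed leukocyte and macrophage markers stood at ratios of 1.05, 0.938 and 1.37 between embryo and oocyte horn in sows 1 to 3. Single markers of this sum differed in direction. Of the 6 measured, CD163 and AIF1 were higher with embryos in all 3 sows, and 0 were lower in all 3. In sow 2 CD163 (0.68) and AIF1 (0.45) were higher on the log2 scale, and the others were lower, CD3D (-1.08) and PTPRC (-0.51) the most. The part of such cells in ITGB2 was not tested. ITGAM, which pairs with ITGB2 in myeloid cells, was dim (2.9, 11.6 and 4.6 against 8.2, 5.7 and 9.7), with a difference of 0.49 on its brighter probe set. ITGB7, a subunit of mucosal lymphocyte integrins, gave 12.6, 8.0 and 13.5 with oocytes and 7.7, 7.1 and 7.0 with embryos, a difference of -0.63 that was -0.60 on its other probe set.

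Other ligands of the same receptors were measured for 19 of 29 genes, of which 10 lay above 0 and 9 below, with a median of 0.05. None had an unadjusted p under 0.05, against 2.88% of all probe sets. With the sow as a block 2 of 19 had, both higher with embryos, against 8.7% of all probe sets. The widest values came from dim probe sets. MADCAM1, the addressin of mucosal vessels, gave 4.5, 1.6 and 1.2 with oocytes and 4.0, 5.7 and 11.6 with embryos, a difference of 1.61 (SE 0.74). FGG, the fibrinogen gamma chain, gave 8.8, 28 and 8.8 with oocytes and 10.4, 4.0 and 3.7 with embryos, a difference of -1.29 that was 1.48 on its other probe set. THBS1, the matrix protein thrombospondin, differed by 0.38 on the brightest of its 5 probe sets, where it gave 63.1, 40.9 and 78.6 with oocytes and 92.8, 64.0 and 76.7 with embryos, and by -1.49 to 0.29 on the others.

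Of the genes listed for the integrin adhesion complex, which range from cytoskeletal linkers to adaptors and caveolar proteins, 18 of 35 were measured. Of these 13 lay above 0 and 5 below, with a median of 0.07. At an unadjusted p under 0.05 stood 1, higher with embryos, against 3 higher and 1 lower once the sow was a block. Of all probe sets 8.7% met that limit in the blocked fit. The 3 higher genes were RDX, RAP1B and CAV1, and each had a lower probe set that was not counted. In blocked limma these had unadjusted p = 7.3e-05, 0.0070 and 0.0072. Uncounted probe sets that met the limit there were also lower for VCL (-2.17), MSN (-1.63) and CD47 (-0.23), and higher for ACTN1 (0.63). The direction of the counts thus depended on the probe set read. RDX, the membrane-to-actin linker radixin, was the one without the block, and its 2 probe sets disagreed. The one with the higher mean log2 signal gave 367.0, 469.5 and 384.6 with oocytes and 490.5, 558.0 and 554.8 with embryos, a difference of 0.40 (SE 0.13), and the other differed by -0.67 (SE 0.19). That lower probe set had the smaller unadjusted p in limma, 0.0080 against 0.0133, and with the block 7.3e-05 against 8.9e-04. It is also the one the authors named for RDX, which they reported as decreased with embryos on the array and by qPCR. CRK, an adaptor of focal adhesions, gave 184.3, 199.8 and 230.8 against 260.7, 262.2 and 210.1, a difference of 0.25. RAP1B, a small GTPase that promotes integrin activation, gave 423.7, 384.7 and 400.6 against 462.2, 492.4 and 426.7, and its 2 probe sets also disagreed in direction (0.19 and -0.34).

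Enzymes that cut, cross-link or change the phosphate of osteopontin were measured for 8 of 12 genes, with 3 above 0, 5 below and a median of -0.06. None had an unadjusted p under 0.05 in limma at its brightest probe set, with or without the block. MMP3 had 4 dim probe sets, of which the brightest differed by -0.28 and the others by 0.41, 0.66 and 3.35. The last of these had an unadjusted p = 0.0143 in limma (0.0079 with the block), at mean signals of 0.57 with oocytes and 7.47 with embryos. ACP5, the tartrate-resistant phosphatase known in the pig uterus as uteroferrin, gave 137.7, 95.2 and 49.9 with oocytes and 137.0, 120.9 and 63.2 with embryos, a difference of 0.22 (SE 0.41). The proteases MMP9 (-0.41, SE 0.70) and MMP7 (-0.40, SE 0.97) were dim, with signals of 3.2 to 19.1 and 1.0 to 5.6.

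**Figure D5:**
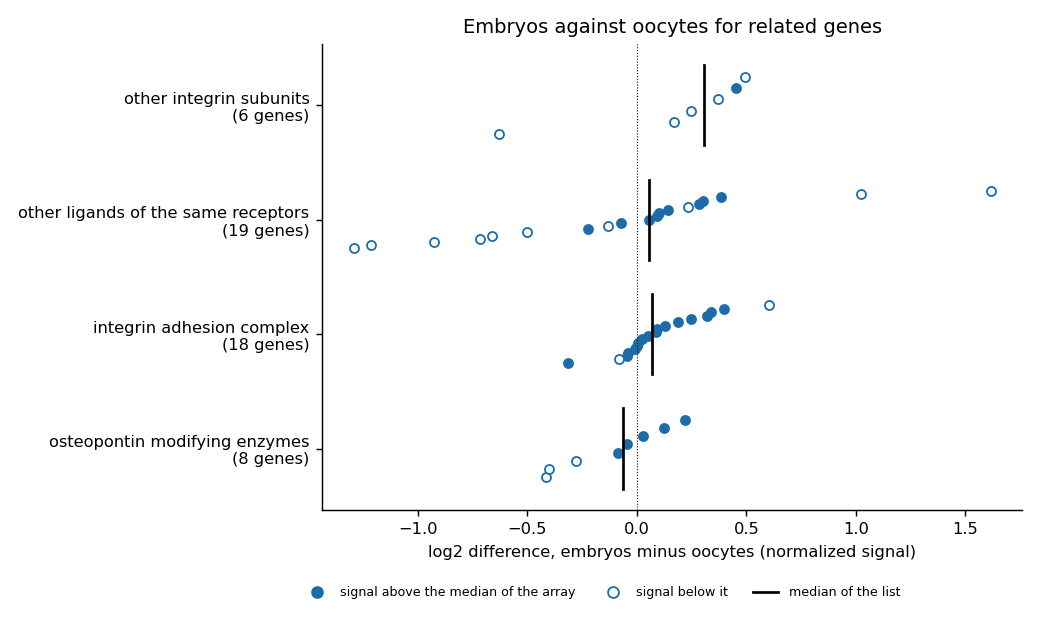
Difference between embryo and oocyte horns (log2) of every measured gene in the 4 lists of related genes, 1 point per gene at its brightest probe set, filled where its signal lay above the median of the array, with the median of each list as a line. Medians lie at 0.31 for 6 other integrin subunits, 0.05 for 19 other ligands, 0.07 for 18 adhesion complex genes and -0.06 for 8 modifying enzymes.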

How the data were processed

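Epithelial scrapings of 6 uterine horns from 3 sows were hybridised to 6 Affymetrix porcine arrays. The authors made and deposited 1 intensity signal per probe set and array, on a linear scale, with MAS5 5.1 per the submitters' processing notes, each array scaled to a mean of 100.02 after trimming 2% at both ends. These values do not include the Lowess step that the methods describe. Each array holds 24123 probe sets, with 1 to 3 signals of 0 and 25.4 to 29.0% under 10. Detection calls were not used here, and the 3 arrays per group limit the precision.

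Signals under 0.1 were set to 0.1, cyclic loess was applied to the log2 values of the 6 arrays, and 124 controls were then removed. The 23999 remaining probe sets were fitted in limma 3.58.1 (R 4.3.3) with the group alone, a variance trend and Benjamini-Hochberg adjustment over all probe sets at 0.05. Intervals are 95% limits of that fit. The procedure was tested on simulated data. Plots used matplotlib 3.10.9 in Python 3.11.15.

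Arrays are numbered 1 to 3 within a group by the labels and the series' design takes both horns from the same sow, so equal numbers were read as 1 sow. Paired arrays deviated together from the group means (correlations of 0.207, 0.173 and 0.100), and each array correlated best with its own number (Spearman 0.963 to 0.967, against 0.956 to 0.959). The same model with a block for the sow was run as well.

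Symbols are those of the array's annotation, in which 10069 tested probe sets have 1 symbol, 198 have several and 13732 have none. Of the first, 9961 were matched by gene identifier to RefSeq's pig gene table (0 symbols changed). Named were all members, up to 3 genes with the smallest p of each related list, and the 5 probe sets nearest to SPP1. The members and lists were chosen with earlier results of these data known. Alternatives tried were no further normalization, quantile or median scaling, a floor of 10, an offset of 32, a filter at the median signal, an untrended variance, a block for the sow, the 5′ to 3′ ratio as a covariate (alone and with the block), averaging the probe sets of each gene, and leaving out each array. Leaving out both arrays of a sow was added after seeing the data.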

Additional observations from a re-analysis of the deposited data

How the results depend on the processing

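No member passed an adjusted p of 0.05 under any alternative, and the smallest adjusted p of a member was 0.0733 (SPP1 in the paired analysis, with the sow as a block, without sow 3). With the sow as a replicate block the difference of SPP1 stayed at 1.10, with an adjusted p = 0.505 in limma, and the block changed no call. SPP1 remained above 0 under every alternative (0.21 to 1.60) except with the 5′ to 3′ ratio and the sow as covariates together, where it was -1.06. That fit leaves 1 residual degree of freedom and also gave ITGB3 -1.04, 1 call among all probe sets, 2 members at an unadjusted p under 0.05 (ITGA5 probe set 1 at 3.84 and ITGAV at -0.54), ITGA5 probe set 2 at -0.16, and list medians of 0.98 for the other integrin subunits and 0.30 for the modifying enzymes. The cause was not tested. The ratio alone gave 0.067, 0.63 and 0.18 for ITGA8 probe sets 1, 2 and 3, of which the second was the 1 member at an unadjusted p under 0.05, and medians of 0.26 for the adhesion complex and 0.18 for the modifying enzymes.

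Leaving out single arrays or sows turned the sign of 6 small or dim differences, which ranged from -0.088 to 0.025 for ITGB1, -0.36 to 0.46 for ITGB3, -0.37 to 1.28 for ITGA5 probe set 1, -0.079 to 0.072 for ITGA8 probe set 1, -0.42 to 0.40 for probe set 2 and -0.59 to 0.080 for probe set 3. Blocked fits without both arrays of sow 1, 2 or 3, which also leave 1 residual degree of freedom, called 3, 1 and 203 of all probe sets, while the fits that left out 1 array, or a sow without the block, called 0. The number of members at an unadjusted p under 0.05 ran from 0 to 2, and the list medians from -0.11 to 0.11 for the other ligands and 0.013 to 0.21 for the adhesion complex. When the probe sets of each gene were averaged these medians were -0.11 and -0.077. The 1 member at an unadjusted p under 0.05 became 0 with the values as deposited, the same median, the floor of 10 or above-median probe sets alone. Members higher with embryos in every sow were 2 with the values as deposited or quantile normalization, where ITGB5 joined SPP1, and members lower in every sow were 0 with the floor of 10 or above-median probe sets alone. The counts by sow need all 3 sows and have no values without 1 of them. Among the alternative values of the member differences 27 changed sign and 189 did not.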

Other observations

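With the sow as a block, some genes of the related lists stood at an unadjusted p under 0.05 that did not without it. They are named here after their values were seen, and none passed the adjusted threshold. SRGN, a proteoglycan of blood cells that binds CD44, gave 253.8, 484.1 and 248.3 with oocytes and 309.1, 581.3 and 321.3 with embryos, or 0.27, 0.25 and 0.38 on the log2 scale in sows 1 to 3 (adjusted p = 0.346 in limma with the block). CAV1, the caveolar coat protein, had probe sets that disagreed. The brightest of its 3 gave 644.3, 272.9 and 431.2 with oocytes and 673.2, 363.2 and 604.8 with embryos, a difference of 0.32 (adjusted p = 0.413 with the block), and the others differed by -0.57 and -0.07. CAV2, its partner, gave 139.8, 62.2 and 135.2 against 126.5, 45.7 and 106.6 on the brighter of 2 probe sets, a difference of -0.32 (adjusted p = 0.520 with the block), and differed by -0.07 on the other. The authors listed the brighter CAV2 probe set among the transcripts altered with embryos, from a model fitted to single probes.

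FN1, fibronectin, the main ligand of the ITGA5 receptor, gave 786.4, 478.9 and 435.5 with oocytes and 892.5, 435.6 and 474.5 with embryos. Like VCAM1 it was highest in both horns of sow 1, and its difference between embryo and oocyte horns was 0.05 (SE 0.32).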
